A study of Homo sapiens with 10 samples.

Results

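The endosomal sorting complexes required for transport (ESCRT) are represented here by 34 genes, picked by name from the 20289 genes of the deposited expression table. They are 3 genes of ESCRT-0 (HGS, STAM, STAM2), 9 of ESCRT-I (TSG101, VPS28, VPS37A to VPS37D, UBAP1, MVB12A, MVB12B), 3 of ESCRT-II (VPS25, VPS36, SNF8) and 12 of ESCRT-III (the CHMP genes and IST1). The VPS4 complex adds VPS4A, VPS4B and VTA1, and the proteins that bring ESCRT-III to a membrane, called recruiters below, add PDCD6IP, PDCD6, BROX and LEMD2. Their RNA was measured in CFPAC-1 and PANC-1, established human lines of pancreatic adenocarcinoma, exposed for 24 h either to 0.1% DMSO or to IKE, the erastin derivative imidazole ketone erastin. IKE blocks system xc-, which imports cystine, and can thereby cause ferroptosis, a form of cell death in which iron drives the peroxidation of membrane lipids and whose regulators the series seeks. CFPAC-1 received 10 µM IKE (2 libraries, against 2 with DMSO) and PANC-1 received 1 µM IKE (4 libraries, against 2 with DMSO), so line and dose cannot be told apart when the 2 drug effects are compared. Dead cells and debris were removed from every sample, so the values describe survivors, and a shift within cells and a change in which cells survived cannot be told apart. The cultures were kept in DMEM or IMDM with 10% serum, and the labels do not say which line had which medium. The labels call the libraries of a group bioreplicates without naming separate cultures, and p-values therefore refer to the spread between these libraries alone, which may be technical.

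ESCRT proteins bend and cut membranes away from the cytosol. ESCRT-0, ESCRT-I and ESCRT-II gather ubiquitin-tagged receptors on endosomes, whereas ESCRT-III polymerises into filaments that narrow the membrane neck, and the ATPase VPS4 takes the filaments apart. The same ESCRT-III filaments close holes in the plasma membrane: after calcium entry PDCD6 (ALG-2) and PDCD6IP (ALIX) reach the wound and bring in CHMP4, and damaged membrane is shed. ESCRT-III, through CHMP5 and CHMP6 among others, is known to delay cell death in ferroptosis and necroptosis by this repair.

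Expression is given in FPKM, fragments scaled to gene length and to the library's total, which allows levels of different genes to be set side by side, and coordinates are for GRCh38 (GENCODE 29). Read depth is unknown because the table holds no counts, and summed FPKM ran from 405937 to 472665 per library. The share of mitochondrial mRNAs was 2.65% to 5.27%, highest in PANC-1 IKE replicate 3. The ductal keratins KRT8, KRT18 and KRT19 were abundant in both lines, at 721 FPKM or more in each library, whereas KRT7 was at 271 to 330.4 FPKM in CFPAC-1 and at 4.39 to 6.15 FPKM in PANC-1, and EPCAM at 152 to 158 FPKM against 8.58 to 11.1 FPKM. Of 18 marker genes of immune, endothelial, stromal, acinar, endocrine and red cells, 14 in CFPAC-1 and 16 in PANC-1 were under 1 FPKM in every library, and 5 in each line were listed at 0 in all libraries. The summed level of these 18 genes was 90.9 to 96.9 FPKM with DMSO and 92.1 to 92.2 with IKE in CFPAC-1, and 46.4 to 52.6 with DMSO and 49.9 to 57.6 with IKE in PANC-1. The genes at 1 FPKM or more were CD68 and COL1A1 in both lines and LYZ and PECAM1 in CFPAC-1. LYZ was at 20.4 to 26.1 FPKM and PECAM1 at 18.5 to 21.3 FPKM there, and COL1A1 was at 3.56 to 5.64 FPKM in CFPAC-1 and 17.9 to 24.9 FPKM in PANC-1, where the IKE and DMSO libraries overlapped. CD68, a lysosomal membrane protein used as a macrophage marker, was at 43.5 and 43.4 FPKM in the CFPAC-1 DMSO libraries and 42.02 and 46.3 FPKM with IKE, and at 23.98 and 29.5 FPKM in the PANC-1 DMSO libraries and 29.6, 32.4, 31.1 and 32.5 FPKM with IKE. In PANC-1 its 4 IKE libraries lay above both DMSO libraries (log2 fold change 0.23, 95% interval 0.05 to 0.41, limma adjusted p = 0.179), as many ESCRT genes did. The part of other cells in the results was not tested, and in bulk RNA fewer cells of a type and less RNA per cell cannot be told apart. As a check of the treatment, ASNS, the asparagine synthetase gene of the amino acid stress response, was at 11.5 and 11.1 FPKM in the CFPAC-1 DMSO libraries and 64.2 and 72.6 FPKM with IKE, and at 47.3 and 52.8 FPKM in the PANC-1 DMSO libraries and 146, 131, 116 and 139.8 FPKM with IKE. It rose in both lines (log2 fold changes 2.50 and 1.39, limma adjusted p = 4.05e-07 and 6.64e-05). Of the 7 genes listed for the response to IKE, limma called 4 higher in CFPAC-1 (ASNS, CHAC1, ATF4 and TFRC) and 3 higher in PANC-1 (ASNS, SLC7A11 and HMOX1). PTGS2, a common ferroptosis marker, was called in neither line. In CFPAC-1 it was at 10.1 and 10.9 FPKM with DMSO and 13.1 and 12.9 FPKM with IKE. Both IKE libraries were higher there (log2 fold change 0.28, 95% interval 0.07 to 0.49, limma adjusted p = 0.213). In PANC-1 PTGS2 was listed at 0.08 to 0.14 FPKM, too low for a change to be read.

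All 34 genes were expressed well enough to be tested, and ESCRT-III gave the most RNA. In CFPAC-1 with DMSO, IST1, the ESCRT-III subunit that draws MIT-domain proteins such as VPS4 to the filament, had the highest mean at 95.4 FPKM. CHMP2A (76.9), CHMP4B (74.1), CHMP3 (70.8), PDCD6 (69.0), SNF8 (68.9) and VPS25 (67.8 FPKM) came next. The CHMP2A libraries lay on either side of the CHMP4B ones, and the ranges of PDCD6, SNF8 and VPS25 overlapped, so these neighbours in the order were not separated beyond their spread (n = 2), whereas CHMP4B lay above CHMP3 in both libraries. The lowest were MVB12B at 1.21 FPKM and VPS37D at 0.885 FPKM, so that the 34 genes spanned about 2 orders of magnitude. The 12 ESCRT-III genes summed to 454 ± 10.5 FPKM in CFPAC-1 with DMSO and to 441 ± 16.5 FPKM in PANC-1 with DMSO (SD, n = 2 each). The 15 genes of ESCRT-0, I and II summed to 348 ± 4.36 and 417 ± 6.58 FPKM in the same libraries. With IKE, the ESCRT-III sum was 433 ± 14.0 FPKM in CFPAC-1 (n = 2) and 494 ± 9.28 FPKM in PANC-1 (n = 4). In PANC-1 the 4 ESCRT-III sums with IKE (484 to 506 FPKM) lay above both DMSO sums (430 and 453 FPKM). In CFPAC-1 the IKE sums (423 and 443 FPKM) lay below both DMSO sums (446 and 461 FPKM). The sums of ESCRT-0, I and II were also higher in PANC-1, at 431 to 484 FPKM with IKE and 412 and 421 with DMSO. In CFPAC-1 these early sums overlapped, at 350 and 367 FPKM with IKE and 344 and 351 with DMSO. How often sums of other gene sets separate was not counted.

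**Figure D1:**
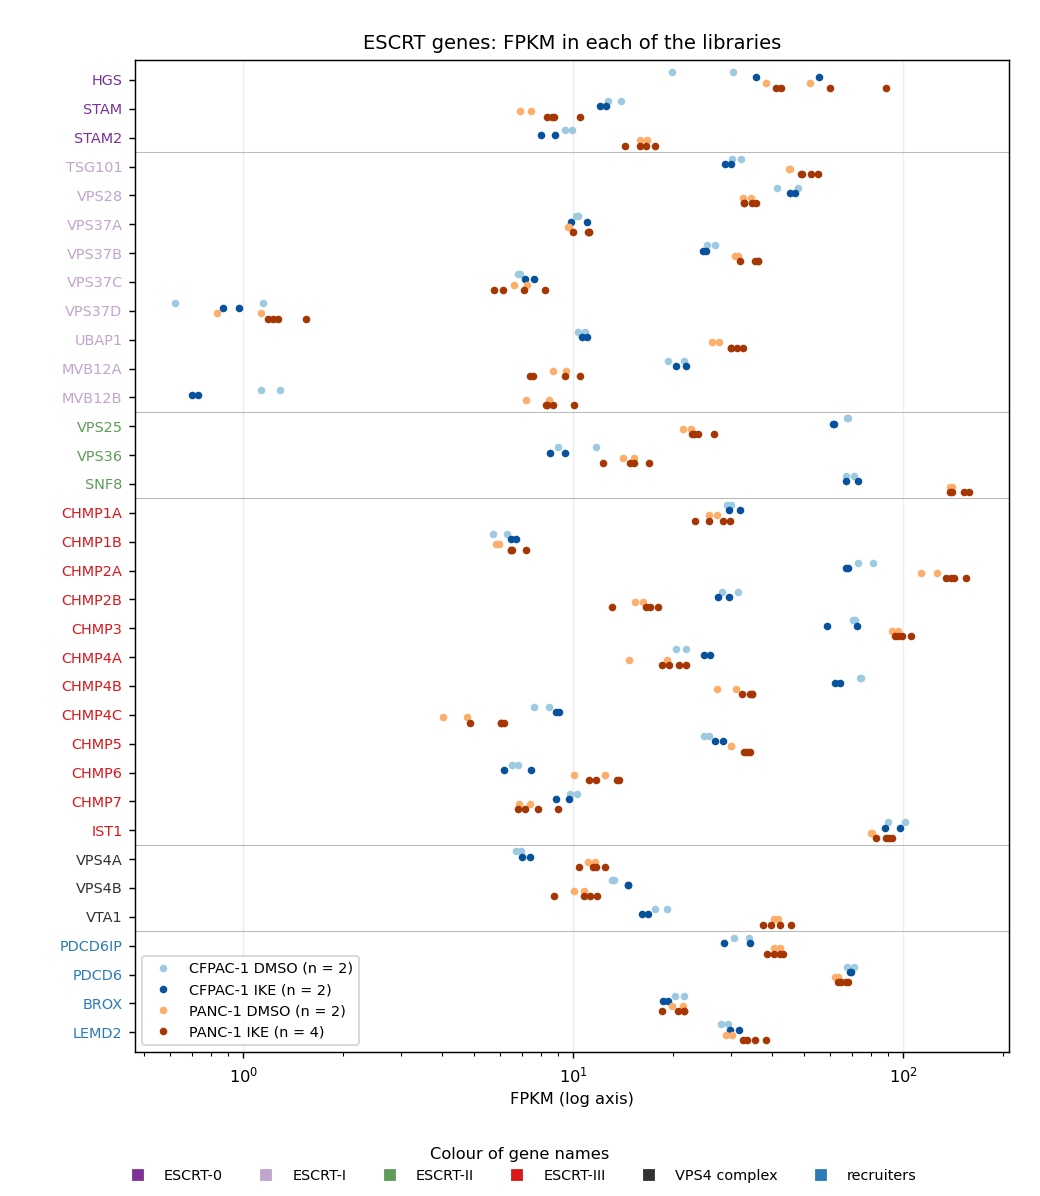
FPKM of each of the 34 ESCRT genes on a log axis, 1 point per library, grouped by complex and coloured by line and treatment. The genes range from about 1 FPKM (VPS37D, and MVB12B in CFPAC-1) to over 100 FPKM (SNF8 and CHMP2A in PANC-1), and the lines separate more than the treatments do.

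The first comparison asked whether the ESCRT genes moved in the CFPAC-1 survivors of 10 µM IKE. None of the 34 was called by limma at an adjusted p under 0.05, where 1.32% of the 13077 tested genes were called, and the lowest adjusted p among them was 0.185, for CHMP4B. At an unadjusted p under 0.05, 1 gene was higher (background 6.50%) and 3 were lower (background 7.10%). Both IKE libraries lay above both DMSO libraries in 9 genes (26.5%, background 23.0%) and below them in 11 (32.4%, background 23.9%), shares not far from those of all genes. The median log2 fold change of FPKM + 1 was 0.01 over the 34 genes and 0.00 over all tested genes. For 32 of the 34 genes the 95% interval of the change lay within 1.5-fold in either direction, and the exceptions were HGS and MVB12B.

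In the early complexes, HGS (ENSG00000185359, chromosome 17, 81683326 to 81703138), the ESCRT-0 subunit that binds ubiquitinated cargo, had the highest fold change in CFPAC-1. Its level was 19.9 and 30.5 FPKM in the CFPAC-1 DMSO libraries and 35.7 and 55.4 FPKM with IKE. Both IKE libraries were higher than both DMSO libraries, yet the replicates of each pair were far apart, and the log2 fold change of 0.83 (SE 0.34, 95% interval 0.08 to 1.57) had a limma adjusted p of 0.308. The within-group SD of HGS, 0.45 on the log2 scale, was at the 99.5th percentile of the tested genes, whose median was 0.11. HGS overlaps the antisense gene ARL16, and it is not stated whether reads were counted by strand. MVB12B, one of a pair of alternative ESCRT-I subunits, was at 1.29 and 1.13 FPKM in the CFPAC-1 DMSO libraries and 0.730 and 0.700 FPKM with IKE. Both IKE libraries were lower, at levels near 1 FPKM where the added 1 compresses the change. Its log2 fold change was -0.36 (limma adjusted p = 0.190), and -0.68 with 0.1 added in place of 1 (adjusted p = 0.0756). TSG101 (ENSG00000074319, chromosome 11, 18468336 to 18527232), the ESCRT-I subunit bound by PDCD6IP and by viral late domains, was at 30.2 and 32.2 FPKM in the CFPAC-1 DMSO libraries and 30.03 and 28.8 FPKM with IKE, with the IKE libraries just under the DMSO ones (log2 fold change -0.08, 95% interval -0.25 to 0.08, limma adjusted p = 0.712).

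Within ESCRT-III, CHMP4B (ENSG00000101421, chromosome 20, 33811304 to 33854366), the main filament-forming subunit, was at 74.2 and 74.1 FPKM in the CFPAC-1 DMSO libraries and 62.1 and 64.1 FPKM with IKE. The replicates were close and the IKE libraries were both lower, with a log2 fold change of -0.23 (SE 0.07, 95% interval -0.39 to -0.07, limma adjusted p = 0.185). Its paralog CHMP4A was at 20.4 and 22.01 FPKM in the CFPAC-1 DMSO libraries and 24.8 and 25.96 FPKM with IKE. Here both IKE libraries were higher (log2 fold change 0.25, 95% interval -0.00 to 0.50, limma adjusted p = 0.375). CHMP4A overlaps AL136295.1 on the same strand, a gene listed at 0.5 to 1.65 FPKM. CHMP4C, the paralog of the abscission checkpoint in cell division, was at 8.43 and 7.57 FPKM in the CFPAC-1 DMSO libraries and 9.05 and 8.87 FPKM with IKE, again with both IKE libraries higher (log2 fold change 0.15, 95% interval -0.12 to 0.42, limma adjusted p = 0.677).

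The capping subunits CHMP2A and CHMP3, which close the filament and receive VPS4, did not pass the test either. CHMP2A (ENSG00000130724, chromosome 19, 58551566 to 58555124) was at 73 and 80.8 FPKM in the CFPAC-1 DMSO libraries and 67.9 and 67.2 FPKM with IKE. Both IKE libraries were lower (log2 fold change -0.18, 95% interval -0.37 to -0.00, limma adjusted p = 0.365). CHMP3 was at 71.3 and 70.2 FPKM in the CFPAC-1 DMSO libraries and 72.5 and 58.8 FPKM with IKE, and the groups overlapped (log2 fold change -0.11, 95% interval -0.32 to 0.09, limma adjusted p = 0.668). CHMP5 (ENSG00000086065, chromosome 9, 33264879 to 33282069), a regulator of VPS4 through VTA1, was at 25.8 and 24.9 FPKM in the CFPAC-1 DMSO libraries and 28.5 and 26.9 FPKM with IKE, with both IKE libraries higher (log2 fold change 0.12, 95% interval -0.02 to 0.27, limma adjusted p = 0.459). CHMP6, which links ESCRT-II to CHMP4, was at 6.50 and 6.81 FPKM in the CFPAC-1 DMSO libraries and 6.18 and 7.45 FPKM with IKE, and the groups overlapped (log2 fold change 0.03, 95% interval -0.27 to 0.32, limma adjusted p = 0.971).

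The ATPases and recruiters showed no larger shifts. VPS4A was at 6.93 and 6.72 FPKM in the CFPAC-1 DMSO libraries and 6.97 and 7.37 FPKM with IKE, and VPS4B at 13.3 and 13.1 FPKM in the CFPAC-1 DMSO libraries and 14.6 and 14.7 FPKM with IKE. Both IKE libraries were higher in each, by 0.06 and 0.14 on the log2 scale (95% intervals -0.15 to 0.28 and -0.12 to 0.40, limma adjusted p = 0.856 and 0.696). VPS4A is uncertain because AC026464.4, on the same strand and overlapping it, was at 7.23 to 15.4 FPKM over the 10 libraries. PDCD6IP was at 30.6 and 33.97 FPKM in the CFPAC-1 DMSO libraries and 34.3 and 28.7 FPKM with IKE, and PDCD6, the calcium sensor, at 67.2 and 70.7 FPKM in the CFPAC-1 DMSO libraries and 69.5 and 68.9 FPKM with IKE. The groups overlapped in both genes, and the 95% interval for PDCD6, -0.13 to 0.14, was narrow (limma adjusted p = 0.993, and 0.917 for PDCD6IP).

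Among the PANC-1 survivors of 1 µM IKE, none of the 34 genes was called by limma either (background 2.38%), but the small shifts leaned one way. The log2 fold change was positive in 29 of 34 genes (85.3%), against 47.9% of all tested genes, and its median was 0.13 against -0.01. All 4 IKE libraries lay above both DMSO libraries in 15 genes (44.1%, background 12.3%) and below them in 0 (background 13.6%). With quantile normalization these counts were 13 and 0 (backgrounds 12.9% and 13.1%), and with median-ratio scaling 15 and 0 (backgrounds 13.3% and 13%). At an unadjusted p under 0.05, 10 genes were higher (29.4%, background 8.37%) and 0 were lower (background 9.25%). The lowest limma adjusted p was 0.0912, for CHMP2A, and the largest change was that of CHMP4C at 0.33. For 33 of the 34 genes the 95% interval lay within 1.5-fold in either direction, and the exception was HGS.

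The 15 genes with separated libraries were STAM of ESCRT-0, TSG101, VPS37A, VPS37B, VPS37D and UBAP1 of ESCRT-I, VPS25 of ESCRT-II, CHMP1B, CHMP2A, CHMP4B, CHMP4C, CHMP5 and IST1 of ESCRT-III, and the recruiters PDCD6 and LEMD2. The VPS4 complex contributed none. VPS37D was near 1 FPKM, with its lowest IKE library at 1.19 and its highest DMSO library at 1.13 FPKM. The same margin was also small for VPS37A (9.96 against 9.68 FPKM), VPS37B (32.07 against 31.49) and VPS25 (22.8 against 22.78). TSG101 was at 45.4 and 44.9 FPKM in the PANC-1 DMSO libraries and 48.9, 49.4, 52.5 and 55 FPKM with IKE. Every IKE library was above the DMSO pair, which lay close together (log2 fold change 0.18, SE 0.06, limma adjusted p = 0.172). STAM, the ESCRT-0 partner of HGS, was at 7.45 and 6.89 FPKM in the PANC-1 DMSO libraries and 8.64, 8.73, 8.34 and 10.5 FPKM with IKE, higher in all 4 IKE libraries (log2 fold change 0.29, SE 0.10, limma adjusted p = 0.139). UBAP1, an ESCRT-I subunit for endosomal cargo, was at 26.4 and 27.5 FPKM in the PANC-1 DMSO libraries and 30.01, 32.7, 31.4 and 30.1 FPKM with IKE. Its 4 IKE libraries were also above both DMSO libraries (log2 fold change 0.20, SE 0.07, limma adjusted p = 0.151). HGS was at 38.4 and 52.3 FPKM in the PANC-1 DMSO libraries and 59.9, 41.02, 42.5 and 88.6 FPKM with IKE, with overlapping groups and IKE replicate 4 far above the rest.

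No ESCRT-III change exceeded 0.33 on the log2 scale in PANC-1. CHMP4B was at 27.3 and 31.03 FPKM in the PANC-1 DMSO libraries and 32.5, 34.8, 34.9 and 34.2 FPKM with IKE. The 4 IKE libraries were above both DMSO libraries (log2 fold change 0.22, SE 0.06, 95% interval 0.08 to 0.36, limma adjusted p = 0.100), opposite in sign to CFPAC-1. CHMP4A was at 14.8 and 19.2 FPKM in the PANC-1 DMSO libraries and 18.6, 20.9, 19.4 and 21.9 FPKM with IKE, and DMSO replicate 2 overlapped the IKE libraries (log2 fold change 0.25, SE 0.10, limma adjusted p = 0.233). CHMP4C was at 4.75 and 4.03 FPKM in the PANC-1 DMSO libraries and 6.05, 4.87, 6.02 and 6.14 FPKM with IKE. IKE replicate 2 was the lowest of the 4 and only just above DMSO replicate 1. The log2 fold change of CHMP4C was 0.33 (SE 0.11, limma adjusted p = 0.135), and without PANC-1 IKE replicate 2 it became 0.39 with an adjusted p of 0.0413, the 1 case in which leaving out a library gave a call among the 34 genes with IKE. CHMP4C overlaps the antisense gene ZFAND1, which was at 20.1 to 27.3 FPKM over the 10 libraries.

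CHMP2A was at 113 and 126 FPKM in the PANC-1 DMSO libraries and 135, 155, 139.7 and 143 FPKM with IKE. All 4 IKE libraries were above both DMSO libraries, by 0.26 on the log2 scale (SE 0.07, 95% interval 0.10 to 0.41, limma adjusted p = 0.0912). CHMP3 was at 92.4 and 96.6 FPKM in the PANC-1 DMSO libraries and 96.2, 94.2, 106 and 99.3 FPKM with IKE, and CHMP6 at 12.5 and 10.02 FPKM in the PANC-1 DMSO libraries and 13.5, 13.8, 11.1 and 11.7 FPKM with IKE. In both the IKE and DMSO libraries overlapped (log2 fold changes 0.06 and 0.15, 95% intervals -0.11 to 0.24 and -0.11 to 0.40, limma adjusted p = 0.750 and 0.567). CHMP5 was at 29.99 and 30.1 FPKM in the PANC-1 DMSO libraries and 32.9, 33.8, 33.3 and 34.4 FPKM with IKE, with a close DMSO pair and every IKE library higher (log2 fold change 0.16, SE 0.06, limma adjusted p = 0.187).

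VPS4A was at 11.1 and 11.7 FPKM in the PANC-1 DMSO libraries and 11.7, 12.5, 10.4 and 11.5 FPKM with IKE, and VPS4B at 10.04 and 10.8 FPKM in the PANC-1 DMSO libraries and 11.8, 8.74, 11.3 and 10.8 FPKM with IKE. Both ATPase genes overlapped between treatments, with log2 fold changes of 0.02 each (95% intervals -0.17 to 0.20 and -0.20 to 0.25, limma adjusted p = 0.950 and 0.944). PDCD6IP was at 42.4 and 40.5 FPKM in the PANC-1 DMSO libraries and 43.1, 42.3, 38.7 and 40.4 FPKM with IKE, with overlapping groups (log2 fold change -0.01, 95% interval -0.19 to 0.17, limma adjusted p = 0.967). PDCD6 was at 62.04 and 63.2 FPKM in the PANC-1 DMSO libraries and 66.9, 67.95, 64.7 and 63.4 FPKM with IKE, higher in each IKE library by a small margin (log2 fold change 0.07, 95% interval -0.05 to 0.19, limma adjusted p = 0.562). LEMD2, the nuclear envelope protein that binds CHMP7, was at 28.9 and 30.2 FPKM in the PANC-1 DMSO libraries and 35.4, 38.3, 33.6 and 32.6 FPKM with IKE, also higher in all 4 IKE libraries (log2 fold change 0.23, SE 0.07, limma adjusted p = 0.119). LEMD2 is described here because of its low p and was chosen after its values were seen, as were HGS, STAM and UBAP1 in the drug comparisons.

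**Figure D2:**
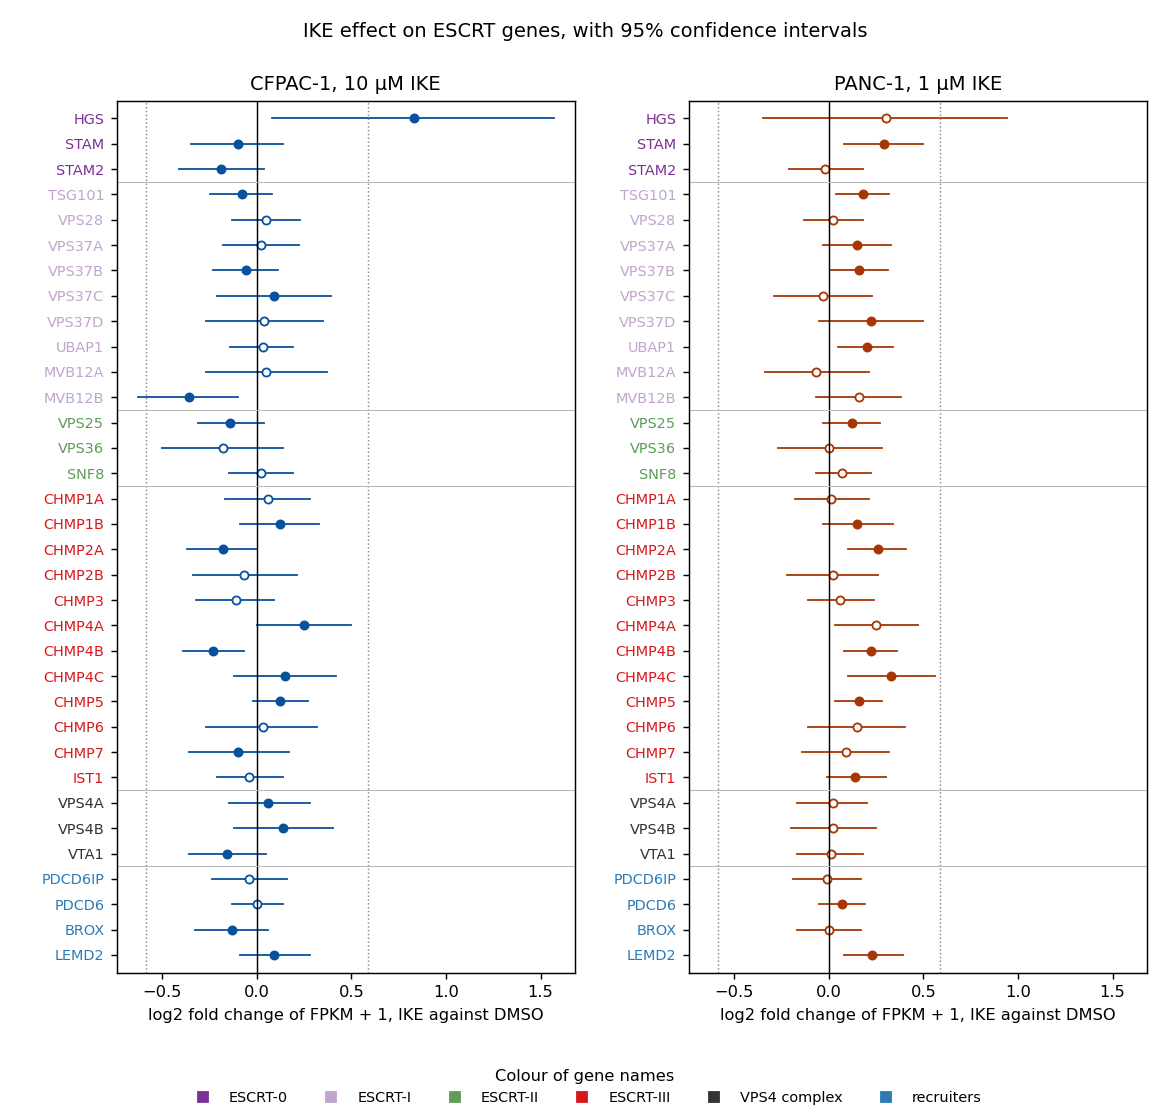
Log2 fold change of FPKM + 1 with IKE against DMSO for the 34 genes in CFPAC-1 (10 µM) and PANC-1 (1 µM), with 95% intervals; filled points mark genes in which every IKE library lay beyond every DMSO library, and dotted lines mark 1.5-fold. In PANC-1 29 of 34 points lie above 0 and 15 are filled on that side, whereas in CFPAC-1 9 are filled above and 11 below 0, and no gene was called in either line.

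ESCRT-III was set against ESCRT-0, I and II in each line. In PANC-1 the median change was 0.15 in both sets; 12 of 12 ESCRT-III genes and 12 of 15 genes of the early complexes were positive, and all 4 IKE libraries were above DMSO in 6 (50%) and in 7 (46.7%) of them, where 12.3% of all tested genes were. In CFPAC-1 the median was -0.01 in ESCRT-III, with 6 of 12 positive, and 0.02 in ESCRT-0, I and II, with 8 of 15 positive. There 4 ESCRT-III genes had both IKE libraries above (33.3%, background 23.0%) and 3 had both below (25%, background 23.9%), shares near those of all genes. In the early complexes 2 were above (13.3%) and 6 below (40.0%). The medians of ESCRT-III and of the early complexes were thus close in both lines, and no test of the sets was made. All 12 ESCRT-III genes were also positive in PANC-1 under quantile normalization and under median-ratio scaling. The VPS4 complex had medians of 0.06 in CFPAC-1 and 0.02 in PANC-1, and the recruiters of -0.02 and 0.03.

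Genes could also be followed across the lines, whose DMSO libraries are separate. CHMP1B, CHMP4C, CHMP5 and LEMD2 had every IKE library above every DMSO library in both lines, 4 of 34 genes (11.8%, background 4.15%), and 0 had every IKE library below in both (background 4.85%). Another 6 genes (17.6%, background 2.10%) had the IKE libraries below in CFPAC-1 and above in PANC-1, and 0 had the reverse (background 2.26%). The 6 were STAM, TSG101, VPS37B, VPS25, CHMP2A and CHMP4B. These joint counts restate those of each line, where 15 of the 34 lay above in PANC-1 and 9 above and 11 below in CFPAC-1. With 0 genes below in PANC-1, both counts of 0 were fixed beforehand. The joint counts are therefore no separate evidence of a shared or opposed response. In the test of the difference between the 2 drug effects itself, PANC-1 minus CFPAC-1, limma called none of the 34 genes (background 0.336%). At an unadjusted p under 0.05, 7 differences were positive (background 5.83%) and 0 were negative (background 6.52%). The lowest adjusted p was that of CHMP4B, whose drug effect was 0.45 higher in PANC-1 on the log2 scale (SE 0.10, 95% interval 0.23 to 0.66, limma adjusted p = 0.0973). For CHMP2A the difference was 0.44 (SE 0.11, 95% interval 0.20 to 0.68, limma adjusted p = 0.144), and for MVB12B 0.52 (SE 0.16, 95% interval 0.18 to 0.86, limma adjusted p = 0.219). The difference is built from the same libraries as the 2 drug effects and carries both the line and the 10 µM against 1 µM dose.

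Short sequence motifs were read from the RefSeq promoters (GRCh38.p14, 250 bases before to 50 after a start site), which matched 27 of the 34 genes; CHMP3, CHMP4C, CHMP6, CHMP7, VPS28, VPS37A and VPS37C had no match. On both strands, TGACNNNGC, the antioxidant response element, occurred in 3 of the 27 (11.1%) against 13.3% of all 35116 promoters. TGATGNAA, the amino acid response element bound by ATF4, occurred in 0 of 27 against 3.62%. TCACGTGA, the lysosomal CLEAR element, occurred in 2 of 27 (7.41%) against 0.980%. The 27 are counted as genes with a match in any of their promoters, whereas the background counts each promoter by itself. A gene with more than 1 start site thus had more chances to match. The motifs can share letters at their ends, but no matched gene held more than 1 of them. The 5 matches are shown with 10 bases on either side, motif in capitals, because the elements are those of the responses to oxidants, to amino acid lack and to lysosomal stress; a match is a description of the letters, not a bound site.
CHMP5 antioxidant response element, chr9:33265009-33265037, plus strand: gaggcgggagTGACTCTGCttccgtttct
VTA1 antioxidant response element, chr6:142147155-142147183, plus strand: gtagttgactTGACGTCGCtgagcaacgg
CHMP2B antioxidant response element, chr3:87227327-87227355, plus strand: gagctccgggTGACGCGGCtgcggtagct
PDCD6IP CLEAR element, chr3:33798514-33798541, plus strand: cgcgacacctTCACGTGAccgcggacag
CHMP4A CLEAR element, chr14:24213586-24213613, minus strand: gtggcttgggTCACGTGAcaccggtggt
Counted from the RefSeq start site, the CHMP5 match begins 30 bases before, the VTA1 match 98 before and the CHMP2B match 28 after. The CLEAR matches begin 106 (PDCD6IP) and 115 (CHMP4A) bases before. All 5 matches lie inside the span of their gene in GENCODE 29, which starts further upstream than the RefSeq site used here. None of these 5 genes was called with IKE in either line: CHMP5 shifted by 0.12 and 0.16, VTA1 by -0.16 and 0.01, CHMP2B by -0.07 and 0.02, PDCD6IP by -0.04 and -0.01, and CHMP4A by 0.25 and 0.25 on the log2 scale in CFPAC-1 and PANC-1.

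The lines themselves differed much more than the treatments did. With DMSO, 26 of the 34 genes differed between PANC-1 and CFPAC-1 by limma, 15 higher in PANC-1 (44.1%, background 43.4%) and 11 lower (32.4%, background 35.2%), and 78.7% of all tested genes were called in this comparison. The share among ESCRT genes is near that of all tested genes, so these calls do not set the ESCRT genes apart. The values below describe how far single subunits differed between the lines. In ESCRT-III, 4 genes were higher and 6 lower in PANC-1, with a median log2 difference of -0.20. In ESCRT-0, I and II, 8 were higher and 4 lower, with a median of 0.25, while the median of all genes was 0.12. Median-ratio scaling moved the median of all genes to -0.01. Under that scaling 23 of the 26 calls kept their sign and call, and HGS, VPS37B and CHMP5 lost theirs (adjusted p = 0.0755, 0.163 and 0.142, limma), as they did under quantile normalization, while CHMP1A and PDCD6 were called lower in PANC-1 under both.

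Of the genes higher in PANC-1, MVB12B (ENSG00000196814, chromosome 9, 126326849 to 126507041) had the largest difference. It was at 1.29 and 1.13 FPKM in the CFPAC-1 DMSO libraries and at 8.42 and 7.20 FPKM in the PANC-1 DMSO libraries and 8.67, 10.01, 8.24 and 8.33 FPKM with IKE. The log2 difference with DMSO was 1.99 (SE 0.12, limma adjusted p = 2.40e-08), and no library of one line reached those of the other. MVB12A, the other form of this ESCRT-I subunit, went the opposite way, at 21.6 and 19.4 FPKM in the CFPAC-1 DMSO libraries and 20.5 and 21.9 FPKM with IKE, and at 9.48 and 8.68 FPKM in the PANC-1 DMSO libraries and 10.5, 9.46, 7.55 and 7.37 FPKM with IKE. Every PANC-1 library was lower than every CFPAC-1 library (log2 difference -1.09 with DMSO, SE 0.14, limma adjusted p = 2.58e-05). UBAP1, which can take the same place in ESCRT-I, was at 10.3 and 10.8 FPKM with DMSO in CFPAC-1 and at 26.4 and 27.5 in PANC-1 (log2 difference 1.27, SE 0.08, limma adjusted p = 2.42e-08). TSG101 was higher too, 30.2 and 32.2 FPKM against 45.4 and 44.9 (log2 difference 0.52, SE 0.07, limma adjusted p = 4.99e-05).

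The 3 genes of ESCRT-II, a complex of VPS36, SNF8 and a pair of VPS25 subunits, did not move together between the lines. VPS25 (ENSG00000131475, chromosome 17, 42773436 to 42779599) was at 68.1 and 67.5 FPKM in the CFPAC-1 DMSO libraries and 61.3 and 61.8 FPKM with IKE, and at 21.5 and 22.8 FPKM in the PANC-1 DMSO libraries and 22.8, 26.6, 23.9 and 23.3 FPKM with IKE. It had the largest difference toward lower values in PANC-1, with no overlap (log2 difference -1.57, SE 0.08, limma adjusted p = 5.49e-09). SNF8 (ENSG00000159210, chromosome 17, 48929316 to 48945117) was at 67.01 and 70.9 FPKM in the CFPAC-1 DMSO libraries and 72.6 and 66.97 FPKM with IKE, and at 141 and 139 FPKM in the PANC-1 DMSO libraries and 152, 158, 139 and 140.3 FPKM with IKE, higher in every PANC-1 library (log2 difference 1.01, SE 0.08, limma adjusted p = 2.15e-07). In ESCRT-0, STAM was at 12.7 and 13.9 FPKM in the CFPAC-1 DMSO libraries and 12.6 and 12.04 FPKM with IKE, above its 7.45 and 6.89 FPKM in PANC-1 with DMSO (log2 difference -0.81, SE 0.11, limma adjusted p = 3.36e-05). Its paralog STAM2 was higher in PANC-1, at 15.9 and 16.7 FPKM against 9.89 and 9.43 FPKM with DMSO (log2 difference 0.70, limma adjusted p = 6.14e-05).

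In ESCRT-III, CHMP4B was 74.2 and 74.1 FPKM in CFPAC-1 and 27.3 and 31.0 FPKM in PANC-1 with DMSO (log2 difference -1.32, SE 0.07, limma adjusted p = 1.40e-08). CHMP4C was 8.43 and 7.57 against 4.75 and 4.03 FPKM (log2 difference -0.74, SE 0.12, limma adjusted p = 1.53e-04). The third paralog CHMP4A was lower as well (log2 difference -0.31, limma adjusted p = 0.0261), a call lost without CFPAC-1 DMSO replicate 2 (adjusted p = 0.131) or PANC-1 DMSO replicate 1 (adjusted p = 0.295). The capping subunits divided: CHMP2A was 73.0 and 80.8 against 113 and 126 FPKM (log2 difference 0.63, SE 0.08, limma adjusted p = 2.50e-05). CHMP2B, mutated in a form of frontotemporal dementia, was at 31.5 and 28.3 FPKM in the CFPAC-1 DMSO libraries and 29.5 and 27.4 FPKM with IKE, and at 16.3 and 15.4 FPKM in the PANC-1 DMSO libraries and 16.6, 13.1, 17.1 and 17.98 FPKM with IKE. It was lower in every PANC-1 library (log2 difference -0.88, SE 0.13, limma adjusted p = 5.22e-05). CHMP3 (0.41, limma adjusted p = 0.00151) and CHMP6 (0.67, limma adjusted p = 7.16e-04) were higher in PANC-1, as was CHMP5 (0.24, limma adjusted p = 0.00596), whose call depended on the scaling as given above.

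VTA1 (ENSG00000009844, chromosome 6, 142147162 to 142224689), the cofactor that stimulates VPS4, was at 17.7 and 19.3 FPKM in the CFPAC-1 DMSO libraries and 16.9 and 16.1 FPKM with IKE, and at 40.5 and 41.6 FPKM in the PANC-1 DMSO libraries and 39.8, 37.6, 45.6 and 42.4 FPKM with IKE. Every PANC-1 library was higher (log2 difference 1.11, SE 0.09, limma adjusted p = 4.13e-07). VPS4A was higher by 0.66 (limma adjusted p = 6.37e-05), and VPS4B was lower (log2 difference -0.32, limma adjusted p = 0.0296). The VPS4B call was lost without any 1 of the 4 DMSO libraries, with adjusted p from 0.0509 without PANC-1 DMSO replicate 2 to 0.131 without PANC-1 DMSO replicate 1. Among recruiters only PDCD6IP was called, at 0.35 (limma adjusted p = 0.00457), and PDCD6 missed the threshold at -0.14 (95% interval -0.27 to -0.00, adjusted p = 0.0615). The other 7 genes without a call were VPS37A, VPS37C, VPS37D, CHMP1A, CHMP1B, BROX and LEMD2. The calls of VPS36 and IST1 were lost without CFPAC-1 DMSO replicate 2 (adjusted p = 0.114 and 0.133) and without PANC-1 DMSO replicate 1 (0.0578 and 0.0544). Those of HGS and VPS37B were lost without CFPAC-1 DMSO replicate 1 (0.255 and 0.0744) and without PANC-1 DMSO replicate 2 (0.200 and 0.0594).

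**Figure D3:**
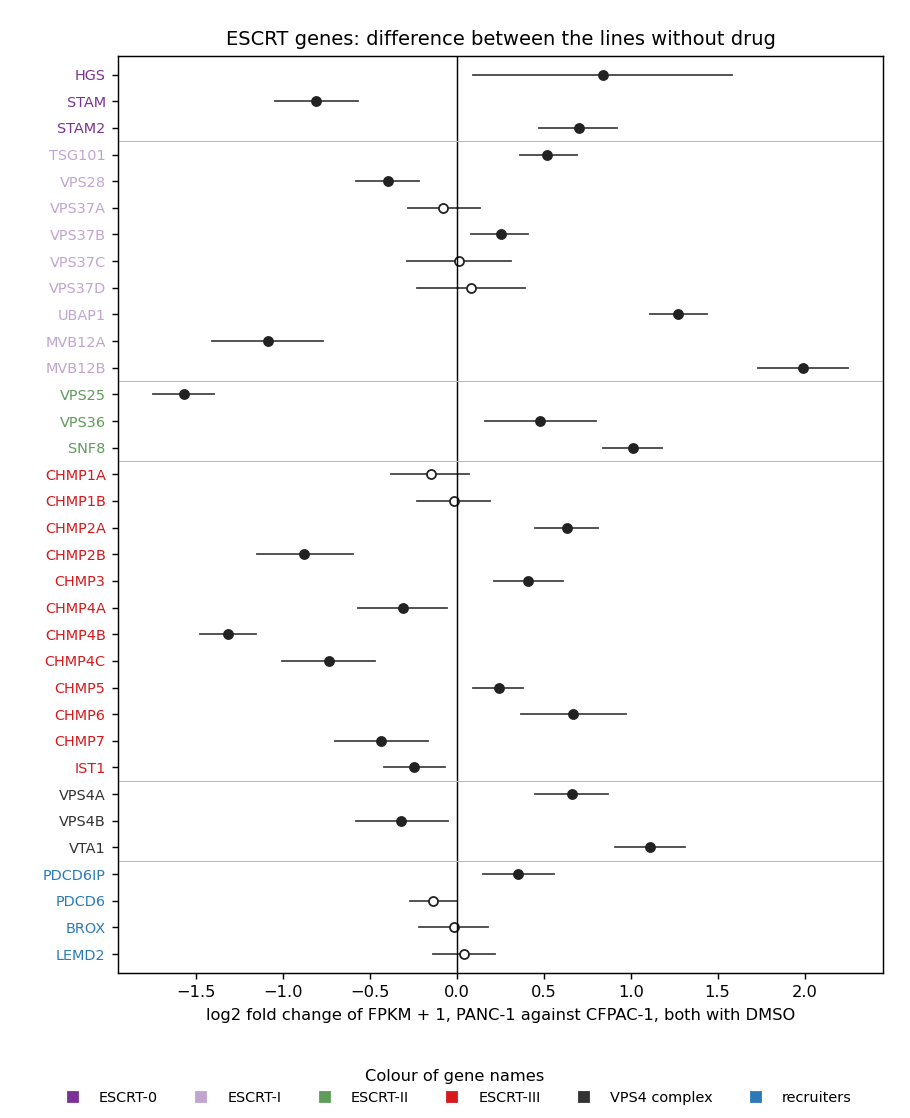
Log2 difference of FPKM + 1 between PANC-1 and CFPAC-1 with DMSO for the 34 genes, with 95% intervals, ordered by complex; filled points were called by limma at an adjusted p under 0.05. MVB12B lies farthest to the right at 1.99 and VPS25 farthest to the left at -1.57, and members of 1 complex fall on both sides of 0.

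Base composition differed between the promoters of VPS25 and CHMP4B, the genes with the largest differences toward lower values in PANC-1. Among MVB12A and MVB12B, the paralogs with opposed differences, it also differed between the 2 start sites of MVB12A. The promoters of these 4 genes are therefore shown. Each is the stretch from 200 to 51 bases before a RefSeq start site (GRCh38.p14, plus strand for all), with CG dinucleotides in capitals; over the 35116 promoters of the table the same 150 bases held a median of 6 of them (quartiles 2 and 14).
MVB12A first start site, chr19:17405541-17405690: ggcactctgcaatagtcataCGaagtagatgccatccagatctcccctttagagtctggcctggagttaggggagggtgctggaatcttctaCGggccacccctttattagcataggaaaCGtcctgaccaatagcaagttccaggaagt
MVB12A second start site, chr19:17419847-17419996: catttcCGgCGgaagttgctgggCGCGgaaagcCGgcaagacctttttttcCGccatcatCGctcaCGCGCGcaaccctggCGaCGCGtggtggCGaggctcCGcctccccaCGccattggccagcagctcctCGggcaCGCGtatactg
MVB12B, chr9:126326629-126326778: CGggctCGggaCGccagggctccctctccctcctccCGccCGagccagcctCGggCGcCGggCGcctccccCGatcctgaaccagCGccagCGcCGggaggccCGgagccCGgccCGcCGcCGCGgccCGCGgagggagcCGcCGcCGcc
VPS25, chr17:42773249-42773398: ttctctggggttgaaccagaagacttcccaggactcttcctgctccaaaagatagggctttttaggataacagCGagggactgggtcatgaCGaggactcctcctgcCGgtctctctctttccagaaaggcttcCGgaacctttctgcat
CHMP4B, chr20:33811148-33811297: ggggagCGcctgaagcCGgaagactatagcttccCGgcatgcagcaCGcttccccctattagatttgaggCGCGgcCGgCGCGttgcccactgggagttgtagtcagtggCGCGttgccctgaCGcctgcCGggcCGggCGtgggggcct
The 2 start sites of MVB12A held 3 and 19 CG dinucleotides, MVB12B held 24, VPS25 held 4 and CHMP4B held 15. With 4 genes chosen for their values, these counts are a description only. Methylation or binding at these promoters was not analysed here, and the values do not say which start site is used.

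Expressed as shares of the summed FPKM of a paralog family, at least 1 member lay apart between all libraries of the 2 lines in 6 of the 7 families examined, and this was not tested. The exception was CHMP1, where CHMP1A held 82.1% to 84% of the pair in CFPAC-1 and 78.2% to 82.2% in PANC-1, so that the lines overlapped. Separation of the lines was common among all genes. With DMSO alone, both PANC-1 libraries lay above both CFPAC-1 libraries in 49.0% of all tested genes and below them in 40.3%. Those figures are for the FPKM of single genes, and paralog shares in other gene families were not counted. Whether 6 of 7 families is unusual can thus not be told. In a pair the shares mirror each other, so both members lie apart together. CHMP4B made up 71.7% ± 0.391 of the summed CHMP4 FPKM in CFPAC-1 with DMSO and 57.8% ± 0.761 in PANC-1 (SD, n = 2 each), and CHMP4A 20.5% ± 1.01 and 33.5% ± 2.68. With IKE in CFPAC-1 the CHMP4B share was 64.7% ± 0.0728 and the CHMP4A share 26.1% ± 0.255 (n = 2), with both IKE libraries outside the DMSO pair. With 2 libraries against 2 an exact permutation test could not have reached 0.05, and none was made. In PANC-1 with IKE the CHMP4B share was 56.8% ± 1.26 (n = 4), overlapping the DMSO libraries.

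MVB12B was 5.58% ± 0.0906 of MVB12 FPKM in CFPAC-1 with DMSO and 46.2% ± 1.20 in PANC-1 (SD, n = 2 each). STAM was 57.9% ± 2.39 of the STAM pair in CFPAC-1 and 30.6% ± 1.88 in PANC-1, so the more abundant paralog changed from STAM to STAM2. VPS4A was 34.1% ± 0.224 of the VPS4 pair in CFPAC-1 and 52.2% ± 0.354 in PANC-1, with the uncertainty about its overlapping gene. CHMP2A held 72% of the CHMP2 pair in CFPAC-1 and 88.3% in PANC-1, and VPS37B 59.2% and 64.0% of the VPS37 genes. In each of the MVB12, STAM, VPS4 and CHMP2 pairs every library of one line lay apart from every library of the other, drug-treated ones included. These shares were chosen after the values were seen, and they restate the FPKM given above on another scale.

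**Figure D4:**
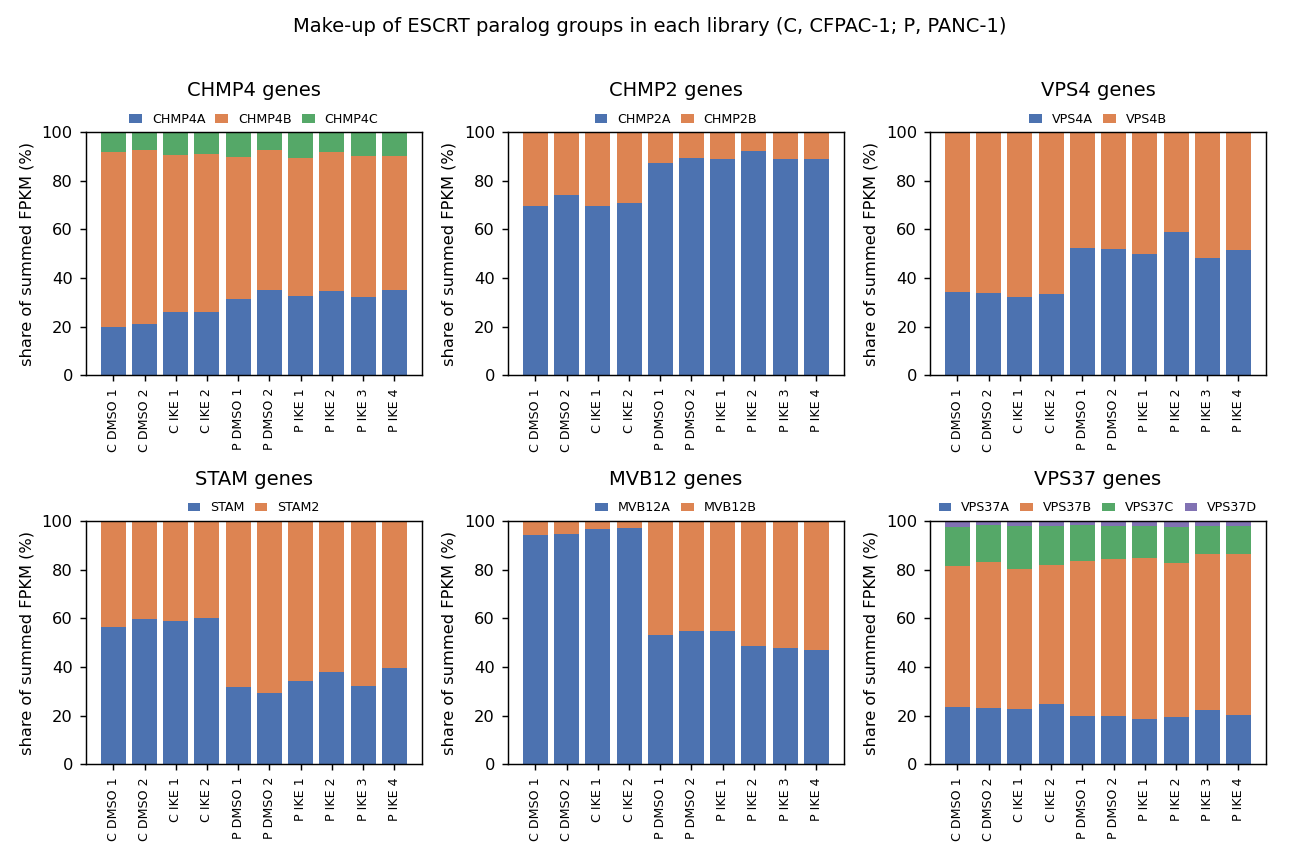
Share of each paralog in the summed FPKM of its family, in percent, stacked for each of the 10 libraries (C, CFPAC-1; P, PANC-1). The CHMP4B share is lower in PANC-1 (57.8% against 71.7% with DMSO), and MVB12B goes from 5.58% in CFPAC-1 to 46.2% in PANC-1.

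Genes that work with ESCRT were followed in the same fit. Of 19 tested partners, which include the ubiquitin hydrolases STAMBP and USP8, the midbody protein CEP55 and the alternative cargo adaptors TOM1, TOLLIP and GGA3, only GGA3 was called with IKE, in CFPAC-1 (1 of 19, background 1.32%). GGA3, a Golgi and endosome adaptor for ubiquitinated cargo, was at 10.2 and 10.8 FPKM in the CFPAC-1 DMSO libraries and 16.03 and 14.4 FPKM with IKE (log2 fold change 0.50, SE 0.08, limma adjusted p = 0.0133). In PANC-1 it was at 18.8 and 20.7 FPKM in the PANC-1 DMSO libraries and 18.99, 19.7, 19.2 and 19.4 FPKM with IKE, with overlapping groups, and the difference between the lines' drug effects did not pass the test (-0.53, limma adjusted p = 0.0865). No partner was called in PANC-1 with IKE (background 2.38%). At an unadjusted p under 0.05, 3 were higher there (15.8%, background 8.37%) and 2 lower (10.5%, background 9.25%). CEP55, which brings TSG101 and PDCD6IP to the midbody, was lower in every IKE library of both lines (log2 fold changes -0.31 and -0.26, limma adjusted p = 0.110 and 0.0912). Between the lines with DMSO, 9 partners were called higher (47.4%, background 43.4%) and 6 lower (31.6%, background 35.2%) in PANC-1, near the shares of all genes. The partners with the smallest p were CEP55 (1.27), STAMBPL1 (1.30) and TOLLIP (1.55), with limma adjusted p = 5.26e-08, 1.52e-07 and 2.94e-07.

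Other membrane repair genes included annexins, dysferlin and caveolar coat proteins. Among the 24 tested, 0 were called with IKE in CFPAC-1 (background 1.32%) and 0 in PANC-1 (background 2.38%). At an unadjusted p under 0.05, 0 were higher (background 6.50%) and 4 were lower (16.7%, background 7.10%) in CFPAC-1. In PANC-1 6 were higher (25%, background 8.37%) and 1 lower (4.17%, background 9.25%), and all 4 IKE libraries lay above DMSO in 7 (29.2%, background 12.3%) and below it in 1 (4.17%, background 13.6%). In CFPAC-1 both IKE libraries lay above in 3 (12.5%, background 23.0%) and below in 12 (50%, background 23.9%). The lowest adjusted p was that of CAV1, the caveolar coat protein, at 289 and 283 FPKM in the PANC-1 DMSO libraries and 329, 346, 340.0 and 327 FPKM with IKE (log2 fold change 0.23, SE 0.05, limma adjusted p = 0.0524). Its 4 IKE libraries lay above both DMSO libraries; CAV1 and CEP55 are given with IKE after their values were seen. Between the lines with DMSO, 10 genes of this list were called higher (41.7%, background 43.4%) and 9 lower (37.5%, background 35.2%) in PANC-1. These shares are near those of all genes. The caveolar gene CAVIN1 went from 2.68 and 2.43 FPKM in CFPAC-1 to 93.1 and 95.5 FPKM in PANC-1 (log2 difference 4.75, limma adjusted p = 1.33e-12) and CAV1 from 94.7 and 97.7 to 289 and 283 FPKM (1.56, adjusted p = 7.00e-10). ANXA1, an annexin that binds torn membrane in the presence of calcium, went the other way, from 332 and 347 FPKM to 68.0 and 65.1 FPKM (log2 difference -2.34, limma adjusted p = 1.33e-10).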

How the data were processed

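Per the labels' protocols, rRNA was removed from total RNA, random primers were used for reverse transcription and the second cDNA strand was destroyed, so the libraries keep the strand. Per the submitters' processing notes, build GRCh38 was used, with HISAT2 2.1.0, Bowtie2 2.2.8, StringTie 1.3.4, fastp 0.18.0 and an unstated version of DESeq2. Not given in the sources used here are what each tool did, which annotation served and whether reads were counted by strand. The table deposited by the authors holds FPKM, rounded to 2 decimals. A further 9 empty columns were not used. Symbols came from GENCODE 29 and matched 20257 of 20289 genes, and 14 of the 34 ESCRT genes overlap another gene of the table, so their values may share reads.

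The 13077 genes that reached 1 FPKM in 2 or more libraries were tested as log2(FPKM + 1). One model over the 10 libraries, with group means and an intensity-dependent variance prior (residual df 6, prior df 5.1), was fitted by limma 3.58.1 (R 4.3.3). The two-sided p-values were adjusted by Benjamini-Hochberg across these genes, and a gene was called at an adjusted p under 0.05. The fit was tested on simulated data. Fold changes of FPKM + 1 understate those of low genes. All comparisons of a line share its DMSO libraries. A count of separated libraries means that each library of one group lay beyond each of the other. The tables and figures were made with Python 3.11.15, pandas 2.3.3 and matplotlib 3.10.9.

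The members, gene lists and tests were chosen with earlier results of these data known. Values are given in full for a panel of 12 genes (CHMP4A to CHMP4C, CHMP2A, CHMP3, CHMP5, CHMP6, VPS4A, VPS4B, PDCD6IP, PDCD6, TSG101), for any member called with IKE or in the difference, and for the 6 called members per direction with the smallest p between the lines. Up to 3 called genes per comparison and other list are named. Promoters, motifs, shares and counts across both lines were chosen after the values were seen. The alternatives were 2 scalings, 2 filters, a pseudocount of 0.1, the replicate block, separate fits of the lines and omission of single libraries.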

Additional observations from a re-analysis of the deposited data

Results flagged for a closer look

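In the groups of 4 libraries, that is PANC-1 with IKE, each of the 34 genes was checked for a library whose gap to its nearest neighbour took up more of the group's range than Dixon's 95% critical value allows, which chance does in about 1 in 20 groups. This found 4 of the 34. VPS37A was at 9.96 FPKM in PANC-1 IKE replicate 1, the lowest of the 4. CHMP1B was at 7.19 FPKM in PANC-1 IKE replicate 1, the highest of the 4. VPS37B was at 32.07 FPKM in PANC-1 IKE replicate 3, the lowest of the 4. CHMP4C, an ESCRT-III paralog of the abscission checkpoint, was at 4.87 FPKM in PANC-1 IKE replicate 2, the library without which it passed the test of IKE against DMSO.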

How the results depend on the processing

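Over the 34 genes in 4 comparisons, 2240 alternative values were computed: 2194 kept direction and side of the threshold or moved by less than the spread, 21 lost and 8 gained a call, 17 moved and 0 called values changed sign. No ESCRT gene was called with IKE under either scaling, either filter, the smaller pseudocount, the replicate block or a fit of each line alone. Leaving out 1 library in turn gave 0 to 1 higher calls in PANC-1. It gave 13 to 15 higher and 8 to 12 lower calls between the lines. Genes with every IKE library above DMSO then numbered 12 to 13 in CFPAC-1 and 15 to 19 in PANC-1, and below it 13 to 16 and 0. The shares of all tested genes under the same omissions were 34.7% to 36.7% and 14.4% to 22.7% above, against 35.3% to 38.2% and 44.1% to 55.9% of the 34, and 35.3% to 37.8% and 16% to 25.5% below, against 38.2% to 47.1% and 0%. The ESCRT-III median was -0.01 to 0.05 and 0.14 to 0.17 in CFPAC-1 and PANC-1, and that of ESCRT-0, I and II was -0.05 to 0.02 and 0.08 to 0.15. PDCD6 was called lower in PANC-1 with DMSO under quantile normalization (-0.18, limma adjusted p = 0.0140), median-ratio scaling (-0.27, 0.00164), no filter (-0.14, 0.0358) and without PANC-1 IKE replicate 2 (-0.14, 0.0379). VPS37D was called higher under quantile normalization (0.51, 0.00598), and HGS lost its call with no filter (0.0860). Over all genes, calls with IKE in CFPAC-1 went from 173 to 262 under quantile normalization and to 57 with the line alone, and in PANC-1 from 311 to 32 with the line alone. With 1 library left out they were 85 to 255 in CFPAC-1, 42 to 503 in PANC-1 and 14 to 62 for the difference. Whether the replicate numbers pair the samples could not be told. For libraries of the same number the correlation of deviations was -0.00145 in CFPAC-1 and 0.118 and -0.0266 in PANC-1. With 2 DMSO libraries per line their deviations mirror each other, so these correlations cannot decide it. With the replicate block, calls in PANC-1 were 149 and those of the difference 15, against 44. Of the 12 ESCRT-III genes, 10 were positive with IKE in PANC-1 under that block. With no block and any 1 PANC-1 library left out, 11 of the 12 were positive. Without PANC-1 DMSO replicate 2 the count was 10 on rounded values. The causes were not tested. Depth is unknown, and 2 libraries in all arms but PANC-1 with IKE, which has 4, limit what small shifts can be called.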
